A study of Mus musculus with 12 samples.

Results

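Amitriptyline (AMI), a tricyclic antidepressant, was compared with vehicle in the hippocampus of aged male 3×TgAD mice on 6 expression arrays. They are the 6 hippocampal arrays among the 12 arrays of the study, and each AMI array was set against the vehicle array with the same replicate number, which gave 3 pairs. The 3 AMI samples came from mice that received 100 µg of AMI per g of body weight in the drinking water for 4 months, from 14 to 18 months of age. The 3 vehicle samples came from 3×TgAD mice of the same age that drank water. Both groups carried the same genotype, which joins mutant human APP and tau transgenes, expressed in neurons from a Thy1 promoter, with a mutant presenilin 1, and both had been injected with BrdU midway through the treatment. All samples shared this genotype, so each value is a difference between AMI and vehicle samples within this genotype. Other differences between the samples cannot be told apart from AMI. The sources used here do not say which mouse gave which sample or what an AMI and a vehicle sample of the same number shared, so a p-value measures the spread between these samples, which may in part be technical. The cortex of the same treatment groups was measured on the other 6 arrays and is used here for comparison.

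The hippocampus forms new memories, and its dentate gyrus keeps producing granule neurons in adult mice. AMI blocks the reuptake of serotonin and noradrenaline and binds histamine, muscarinic and adrenergic receptors. Brain tissue also holds oligodendrocytes, which wrap axons in myelin, and the choroid plexus, an epithelium in the ventricles beside the hippocampus that makes cerebrospinal fluid and secretes transthyretin. In RNA from whole tissue, fewer cells of a type and less RNA per cell cannot be told apart.

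A probe on these arrays is a stretch of 50 bases, and its signal is the mean fluorescence of the beads that carry it. The following probes are shown because the lowest p-values, the difference between probes of 1 gene and the myelin and choroid plexus results rest on them. They are printed in lower case, 5′ to 3′, as the array annotation gives them, with chromosome, start, end and strand from the same annotation, whose genome build is not named.
6330503K22Rik, upstream probe, chr7:125880065-125880114, plus strand: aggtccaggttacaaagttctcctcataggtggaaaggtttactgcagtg
6330503K22Rik, downstream probe, chr7:125880160-125880209, plus strand: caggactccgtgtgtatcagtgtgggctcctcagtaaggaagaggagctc
Rps15a, chr7:125247949-125247998, minus strand: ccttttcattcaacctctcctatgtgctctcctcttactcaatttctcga
Trf, chr9:103119717-103119766, minus strand: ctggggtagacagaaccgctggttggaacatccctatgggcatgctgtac
Cnp, chr11:100442766-100442815, plus strand: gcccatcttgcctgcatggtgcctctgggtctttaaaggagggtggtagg
Tmem10 (Opalin), chr19:41137970-41138019, minus strand: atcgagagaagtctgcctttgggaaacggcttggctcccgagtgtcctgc
Enpp2, chr15:54670946-54670995, minus strand: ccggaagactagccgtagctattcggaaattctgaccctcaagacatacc
The exon or untranslated region that holds each probe is not given by that annotation.

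Of 25697 probes, 13163 probes of 9940 genes were detected at a p-value up to 0.05 by 3 or more of the 6 arrays and were tested. Values below are levels of log2 signal, on which 0 is the mean of all probes of an array and a difference of 1 is about a doubling of the signal. Background was not subtracted, so differences of dim probes are understated. Per array 12809 to 13280 probes were detected. The arrays of pair 1 were dimmer, with a median signal of detected probes of 161.6 for AMI and 188.3 for vehicle, against 262.4 to 329.6 on the other 4 arrays.

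Pairing by replicate number reduced the spread. Once the group means were removed, arrays with the same number deviated together, with a correlation over the tested probes of 0.611 in pair 1, 0.296 in pair 2 and 0.293 in pair 3. Each AMI array was most like its own vehicle array, although for AMI replicate 3 the correlation with vehicle replicate 2 was nearly as high (0.28). Pair 1 lay apart from the other 4 arrays on the first principal component, which held 49.2% of the variance, and vehicle replicate 3 lay apart on the second, which held 19.8%. The median residual SD was 0.096 in the paired fit, with 2 residual degrees of freedom, and 0.146 without pairing, with 4.

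In the paired fit no gene passed an adjusted p-value of 0.05. The smallest adjusted p-value was 0.178 (limma with Benjamini-Hochberg adjustment over 13163 probes). At an unadjusted p-value under 0.05, 1006 genes had at least 1 probe that differed, with 600 genes higher and 411 lower after AMI. Without pairing this number was 297, and each of these 297 genes was also among the 1006 of the paired fit. The split by direction depended on the scaling. With median centring in place of z normalization, 1040 genes were higher and 166 lower. The count of 0 at the adjusted threshold also rested on pair 3 and pair 2. Without pair 3 it became 53 genes, and without pair 2 it became 8 genes, each from 2 pairs with 1 residual degree of freedom. Of the 60 probes called without pair 3, 30 had the same sign in pair 3. Of the 8 probes called without pair 2, 3 had the same sign in pair 2. A plain paired t-test gave 0 genes after adjustment and 880 genes at an unadjusted p-value under 0.05. In the text below, "lower" or "higher at p under 0.05" refers to the unadjusted p-value of the paired limma fit, and the adjusted p-value is given for each gene described in full.

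**Figure D1:**
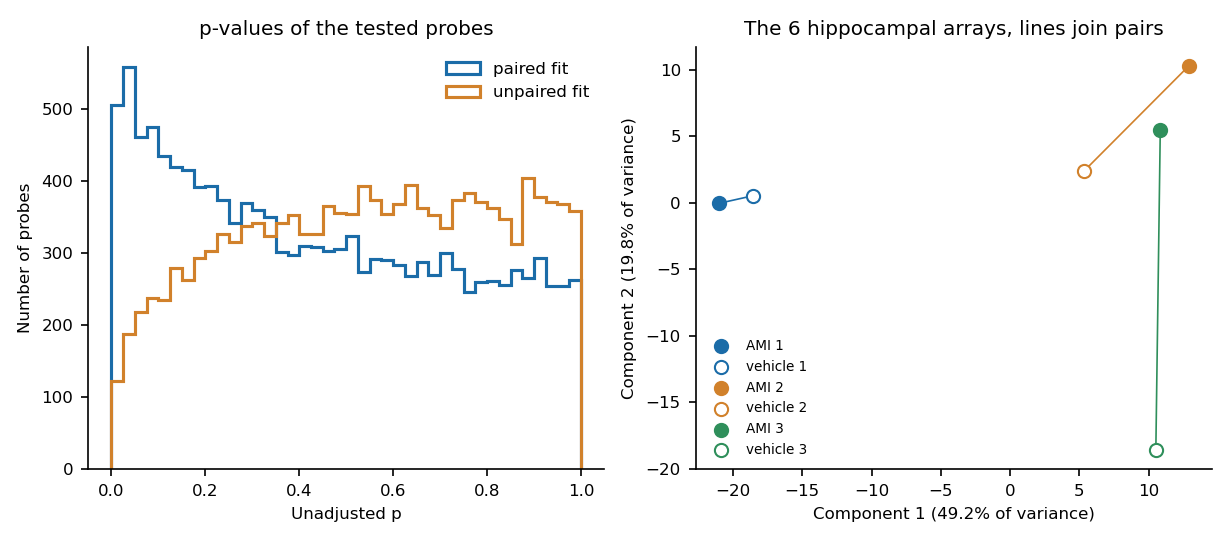
Left, number of tested probes (vertical axis) by unadjusted p-value (horizontal axis) in the paired fit and in the unpaired fit. Right, the 6 arrays on the first 2 principal components (arbitrary units), filled for AMI and open for vehicle, with a line between the arrays of a pair. The unpaired p-values thin out toward 0 and the paired ones do not. Both arrays of pair 1 lie at the left, and vehicle replicate 3 lies at the bottom.

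With 1 probe per gene, 4.95% of the 9940 genes were higher and 3.65% lower at p under 0.05. The differences had the same sign in all 3 pairs for 18.4% of genes upward and 13.8% downward. The AMI and vehicle levels were fully separated in 4.42% of genes with AMI higher and in 3.6% with AMI lower. These shares are the background against which the counts of each gene list below can be read. The median difference over all genes was 0.01. Without pair 1 the shares at p under 0.05 were 5.03% higher and 3.4% lower. Without pair 2 they were 3.36% and 3.27%, and without pair 3 they were 4.25% and 3.44%. Without pairing, 1.5% were higher and 0.956% lower. The plain paired t-test gave 4.51% and 2.74%, and median centring 9.05% and 1.49%.

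The lowest p-value in the hippocampus belonged to 6330503K22Rik, named Ccp110 in RefSeq, which encodes a protein that caps centrioles. Its upstream probe read 0.90, 0.74 and 1.07 in AMI replicates 1, 2 and 3 and 2.57, 1.98 and 1.995 in vehicle replicates 1, 2 and 3. Every AMI array lay below every vehicle array. The difference was -1.28 ± 0.13 (SE, 3 pairs), a 2.42-fold lower signal (limma adjusted p = 0.178). It was the 1 gene that passed the cutoffs of the study with the p-value and false discovery rate of the paired fit. These cutoffs ask for a z ratio beyond 1.5 in size, a p-value up to 0.05 and a false discovery rate below 0.3. At p under 0.05 the smallest z ratio was 1.53 in size, so that cutoff removed nothing. The study reported a longer list of hippocampal genes. Run here, the unpaired t-test of its methods gave 0 genes by these cutoffs, and the source of this gap was not tested. A second probe of 6330503K22Rik starts 45 bases after the end of the upstream one. That downstream probe, brighter on average, differed by -0.07 ± 0.11 (limma adjusted p = 0.867), with pair differences of -0.15, -0.29 and 0.22. The 2 probes of this gene thus disagreed, and the upstream one alone carried the difference.

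Rps15a, which encodes a protein of the small ribosomal subunit, came next. Its levels were 1.30, 1.14 and 0.96 with AMI and 2.69, 1.86 and 2.61 with vehicle. The groups did not overlap, and the difference was -1.25 ± 0.16 (SE, 3 pairs, limma adjusted p = 0.36). The Rps15a probe and the upstream 6330503K22Rik probe lie 632 kb apart in band 7qF2. Tmc7, a transmembrane channel-like gene of the same band, was lower by -0.61 ± 0.12 (limma adjusted p = 0.566), and its groups did not overlap either. Within 5 Mb on each side of the Rps15a probe, 41 other genes with probe coordinates were tested, of which 6 were lower and 3 higher at p under 0.05. Tmc7 has no coordinates in the annotation and is not among them. The lower ones included Coq7, needed for ubiquinone synthesis (-0.41, limma adjusted p = 0.566), and Arl6ip1, a membrane protein of the endoplasmic reticulum (-0.47, limma adjusted p = 0.566). The difference of Rps15a was not shared at this size by the rest of its complex. Of 52 cytosolic ribosomal protein genes, 9 were lower at p under 0.05 and none higher. After Rps15a the largest difference among these 9 was that of Rpl23 (-0.36, limma adjusted p = 0.616), followed by Rps25 (-0.26, limma adjusted p = 0.598). The median of the 52 genes was -0.09, and it turned to 0.07 with median centring, where 1 gene was lower and 1 higher. Leaving out pair 2 left 2 genes lower.

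Genes of oligodendrocytes and myelin were lower after AMI. Of the 22 listed genes on the array 16 passed the filter on detection, and all 16 of these had a negative difference, 11 of them at p under 0.05. The median of the 16 was -0.46, against 0.01 over all genes. In 5 genes, Trf, Cnp, Tmem10, Qdpr and Ugt8a, each AMI array lay below each vehicle array, and in 7 genes the difference was negative in all 3 pairs. Many of the 16 genes are known from the same cell type and were read from the same samples, so their counts are not independent observations.

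Trf, which encodes the iron carrier transferrin that oligodendrocytes make, read 3.46, 3.63 and 3.78 with AMI and 4.39, 4.43 and 4.23 with vehicle. The 3 AMI values lay below the 3 vehicle values with a clear gap. The difference was -0.73 ± 0.11 (SE, 3 pairs), or 1.65-fold (limma adjusted p = 0.39), and Trf stayed at p under 0.05 under each of 13 alternative settings. In pair 3 Trf differed by -0.44, where the median of the list was 0.06. Whether oligodendrocytes gave the Trf signal was not tested. Cnp, a phosphodiesterase of noncompact myelin, read 2.67, 2.41 and 2.75 with AMI and 3.27, 3.24 and 3.15 with vehicle, again without overlap (-0.60 ± 0.10, limma adjusted p = 0.536). A second Cnp probe differed by -0.31 (limma adjusted p = 0.636). In pair 3 the 2 Cnp probes had opposite signs, -0.39 for the first and 0.19 for the second. Qdpr, a pteridine reductase enriched in oligodendrocytes, differed by -0.53 ± 0.11 (limma adjusted p = 0.566).

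For Mbp, Mog and Mag, which encode proteins of the myelin sheath, the third pair differed from the others. Mbp, myelin basic protein, read 7.34, 6.29 and 7.05 with AMI and 7.93, 7.32 and 6.92 with vehicle. The AMI level was lower in pairs 1 and 2, by 0.60 and 1.03, and slightly higher in pair 3, by 0.14 (-0.50 ± 0.19, limma adjusted p = 0.609). Its 3 probes disagreed, since another differed by -0.57 ± 0.18 and the remaining one by 0.20 ± 0.08, with AMI above vehicle on all arrays. Mog, on the outer surface of myelin, differed by -0.82, -1.002 and 0.06, and a second Mog probe by -0.88, -1.10 and -0.04. Mag, on its inner surface, differed by -0.80, -0.72 and 0.06. Tmem10, renamed Opalin and found in oligodendrocyte membranes, differed by -0.91, -0.995 and -0.13, and its pair 3 difference had the sign of the others.

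The list medians by pair were -0.59, -0.76 and 0.06. The mean level of the 16 genes was 3.14, 3.01 and 3.34 in AMI replicates 1, 2 and 3 and 3.72, 3.77 and 3.32 in the vehicle replicates. Vehicle replicate 3 thus read lower than the other vehicle arrays, and AMI replicate 3 read higher than the other AMI arrays. Without pair 3 all 16 genes were lower at p under 0.05. Without pair 1 the count was 5, and without pair 2 it was 4. Of the 53 genes at an adjusted p-value under 0.05 without pair 3, 14 were members of this list. Median centring left 6 genes lower at p under 0.05, a plain paired t-test left 2, and the median was negative in each of these settings. Among genes outside the list, and chosen after their values were seen, Klk6, a serine protease expressed by oligodendrocytes, differed by -0.51, -0.56 and -0.48 (limma adjusted p = 0.39). The laminin receptor subunit Itgb4 differed by -0.66, -0.56 and -0.48 (limma adjusted p = 0.39). Klk6 and Itgb4 were lower in pair 3 as well. Tspan2 and Enpp6, also outside the list, were lower over pairs 1 and 2 but higher in pair 3, by 0.53 and 0.07. Among the 60 probes called without pair 3, 30 kept their sign in pair 3.

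**Figure D2:**
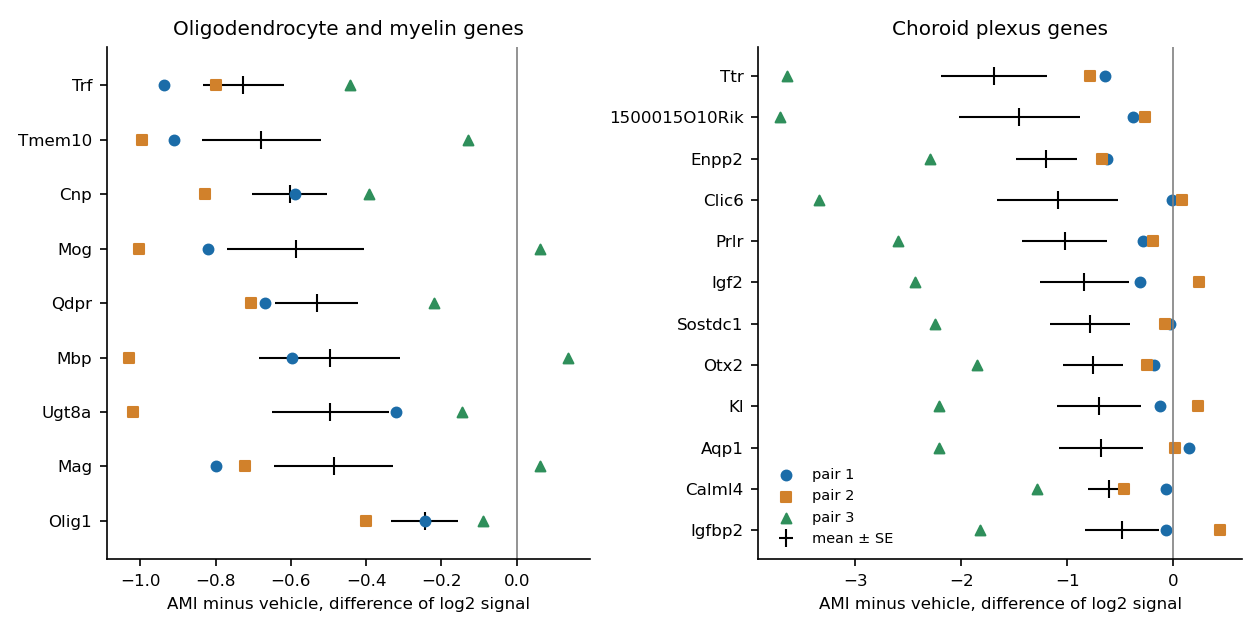
Difference of log2 signal, AMI minus vehicle (horizontal axis), in each pair for 9 genes of the oligodendrocyte and myelin list that the text names (left) and the 12 tested genes of the choroid plexus list (right), with the mean and the SE of the paired fit. In the myelin genes drawn, pairs 1 and 2 lie left of 0 and pair 3 lies closer to 0. Over all 16 tested genes of that list the pair 3 median was 0.06. The genes not drawn include ones that were higher with AMI in pair 3. Among these were Mal (0.76 in 1 probe and 0.46 in another), Evi2a (0.32 and 0.18) and Mobp (0.29 in 1 probe). Of the 16 genes, 7 were lower in all 3 pairs. In the choroid plexus list pair 3 lies far to the left and pairs 1 and 2 are close to 0 for most genes.

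Choroid plexus genes were lower after AMI, and most of the difference lay in pair 3. Of 15 listed genes on the array 12 were tested. All 12 tested genes had a negative difference, 6 of them at p under 0.05, and the median was -0.81. By pair the medians were -0.15, -0.13 and -2.27. Ttr, transthyretin, which carries thyroid hormone and retinol-binding protein and binds amyloid peptide, read 3.403, 4.02 and 4.58 with AMI and 4.04, 4.81 and 8.22 with vehicle. Vehicle replicate 3 stood far above the other 5 arrays, and the groups overlapped. The pair differences were -0.64, -0.79 and -3.64, with a mean of -1.69 ± 0.50 (limma adjusted p = 0.584). A plain paired t-test of the same differences did not reach p under 0.05. Enpp2, or autotaxin, which makes lysophosphatidic acid, read 3.80, 3.44 and 3.71 with AMI and 4.42, 4.12 and 6.004 with vehicle. Its AMI values lay below its vehicle values on all arrays, also outside pair 3 (-1.20 ± 0.29, limma adjusted p = 0.566). In pairs 1 and 2 it differed by -0.63 and -0.68, more than the list medians of -0.15 and -0.13. Whether choroid plexus cells gave this signal was not tested.

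The other choroid plexus genes named by size were 1500015O10Rik (Ecrg4, a secreted factor precursor), Prlr (the prolactin receptor) and Otx2 (a homeobox factor that choroid plexus requires). They differed by -1.45, -1.03 and -0.76, of which pair 3 gave -3.71, -2.60 and -1.85. Rdh5, a retinol dehydrogenase that is not on the list, followed the same pattern, with -2.11 in pair 3 and -0.17 and -0.13 in pairs 1 and 2. Over the 12 genes the mean level was 3.36 in vehicle replicate 3 and between 0.504 and 0.996 on the other 5 arrays. Without pair 3 the median was -0.13, with 8 genes lower and 4 higher, and 5 genes stayed lower at p under 0.05. Without pair 1 the count was 9 and without pair 2 it was 12. Without pairing 1 gene was lower at p under 0.05, and with trend and robust variances or a plain paired t-test none was. How much choroid plexus each dissected sample held was not tested.

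Red blood cell genes were higher after AMI. Hbb-b1, a beta globin chain, read 1.29, 0.59 and 2.28 with AMI and 0.51, 0.26 and 0.64 with vehicle. AMI was higher within each pair, most in pair 3, while AMI replicate 2 lay below vehicle replicate 3 (0.91 ± 0.21, limma adjusted p = 0.566). Alas2, the erythroid enzyme that starts haem synthesis, differed by 0.27, 0.31 and 1.81 (limma adjusted p = 0.608). Hba-a1, an alpha globin chain, differed by 1.02, -0.26 and 1.16 (limma adjusted p = 0.609). The 3 tested genes of the list were thus higher at p under 0.05, with list medians of 0.78, 0.31 and 1.63 in the pairs. With a plain paired t-test none was, and without pairing 1 was. The globin copies are nearly identical in sequence and the annotation's accession for Hbb-b1 belongs to Hbb-bt in RefSeq, so the copy that gave the signal is uncertain.

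Among genes of brain endothelium, 4 of 12 were higher and 1 lower at p under 0.05. Slc2a1, the glucose transporter of the blood-brain barrier, differed by 0.33 ± 0.10 (limma adjusted p = 0.584), Ly6a by 0.39, Vwf, von Willebrand factor, by 0.29 and Pecam1, an endothelial adhesion molecule, by 0.23. Tek, the angiopoietin receptor, differed by -0.23, and Cldn5, a tight junction protein, by -0.01 (limma adjusted p = 0.983). The list median was 0.11. Without pair 1 the number higher was 1, and with a plain paired t-test it was 0. Red cell genes were higher in the same direction, and their part in this result was not tested.

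Genes of antigen presentation and interferon response were highest in AMI replicate 3. Of 9 tested genes 8 had a positive difference and 2 were higher at p under 0.05. Cd74, the invariant chain of MHC class II, read -0.65, -0.11 and 2.69 with AMI and -0.61, -0.30 and 0.37 with vehicle. AMI replicate 3 stood apart from the other 5 arrays, and the test was not passed (0.83 ± 0.39, limma adjusted p = 0.63). A second Cd74 probe differed by 0.20, 0.26 and 2.37. H2-Ab1, a class II beta chain, differed by -0.11, 0.45 and 1.94 (limma adjusted p = 0.616), and Oasl2, an interferon-induced gene, by -0.14, 0.51 and 0.85 (limma adjusted p = 0.615). The interferon-induced antiviral gene Rsad2 differed by 0.20, 0.07 and 1.19 (limma adjusted p = 0.609). The list medians by pair were -0.09, 0.15 and 0.54. Without pair 3 no gene of the list was higher at p under 0.05, without pair 1 there were 5, and without pair 2 there were 3. Microglial genes, which also hold immune members, had a median of 0.14, with Cd68 (0.28) and C1qc (0.31) higher at p under 0.05 among 19 genes and none lower. Their medians by pair were -0.16, 0.23 and 0.30. The number higher was 8 without pair 1, 1 without pair 2 and 2 without pair 3, where 2 were also lower, and it was 0 without pairing.

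**Figure D3:**
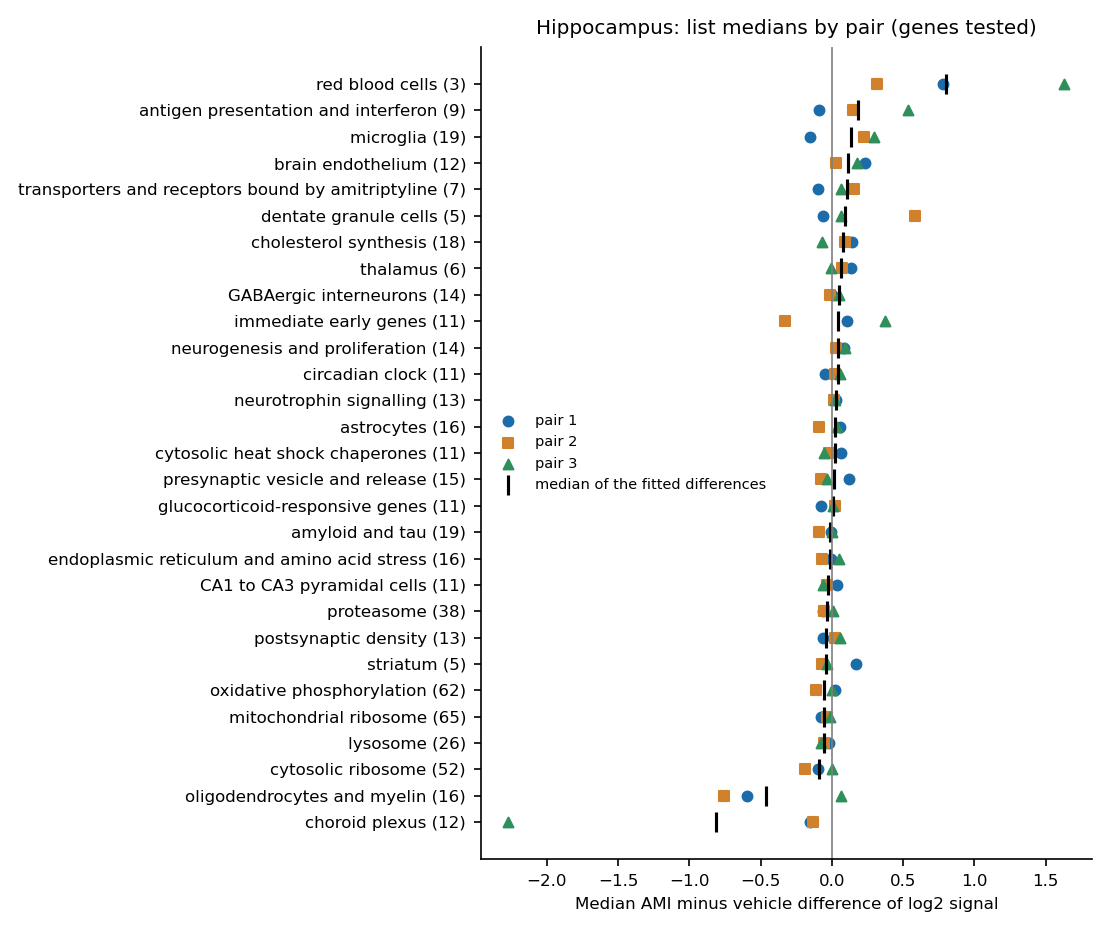
Median difference of log2 signal, AMI minus vehicle (horizontal axis), over the tested genes of 29 cell type and pathway lists (vertical axis, number of tested genes in parentheses), in each pair and for the fitted differences. Lists of choroid plexus, myelin, red blood cells, antigen presentation, dentate granule cells and immediate early genes spread widely between pairs. Most of the others lie within 0.2 of 0 in each pair.

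The largest positive differences by the naming rule (p under 0.05, the same sign in all 3 pairs and in each tested probe of the gene) were those of Gdpd3 and Ccng2. Gdpd3, a lysophospholipase D, read 0.98, 1.83 and 1.71 with AMI and -0.90, 0.85 and 1.29 with vehicle. The low vehicle replicate 1 gave the largest pair difference, 1.88, against 0.97 and 0.42 (1.09 ± 0.23, limma adjusted p = 0.566). Ccng2, cyclin G2, an inhibitory cyclin, read 1.56, -0.57 and 1.11 with AMI and -0.56, -0.78 and 0.59 with vehicle, and so took a high level on 3 arrays and a low level on 3, with pair differences of 2.13, 0.21 and 0.53. Two-level probes of this kind occurred among lower genes too. Psmd8, a proteasome lid subunit, read 0.10 in AMI replicate 1 and 2.36 to 3.32 on the other 5 arrays. Picalm, a clathrin adaptor tied to Alzheimer's disease risk, read -0.58 and -0.80 in AMI replicates 1 and 3 and 0.96 to 1.37 on the other 4 arrays (-1.29 ± 0.31, limma adjusted p = 0.566). The pair differences of Picalm were -1.95, -0.09 and -1.84.

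Other genes were higher with a smaller SE than Gdpd3 and Ccng2, although several of them still differed widely between pairs. Grlf1 (Arhgap35), a GTPase-activating protein of growing axons, read 3.18, 2.80 and 2.62 with AMI and 1.96, 1.91 and 2.60 with vehicle. AMI lay above vehicle in each case, but pair 3 differed by 0.02 only (0.71 ± 0.20, limma adjusted p = 0.584). Actl6b, the neuron-specific actin-like subunit of the BAF chromatin remodelling complex, read 2.78, 2.90 and 2.88 with AMI and 2.53, 1.93 and 2.12 with vehicle. Its 3 AMI values were close together and above all vehicle values (0.66 ± 0.13, limma adjusted p = 0.566). Asah3l (Acer2), a ceramidase of the Golgi, differed by 0.23, 0.65 and 1.24 (0.70 ± 0.17, limma adjusted p = 0.566). The zinc finger genes Zfp367, Zfp94 and Zfp160 differed by 0.66, 0.58 and 0.48, and Zmiz1, a SUMO ligase-like coactivator, by 0.52. For Zfp94 and Zmiz1 each AMI value exceeded each vehicle value. The lower group held Rsph1, a radial spoke protein of motile cilia (-0.70 ± 0.13, limma adjusted p = 0.566), whose AMI values were all below its vehicle values, and Zeb2, a transcription repressor (-0.69 ± 0.16, limma adjusted p = 0.566), which differed by -1.08, -0.83 and -0.16.

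**Figure D4:**
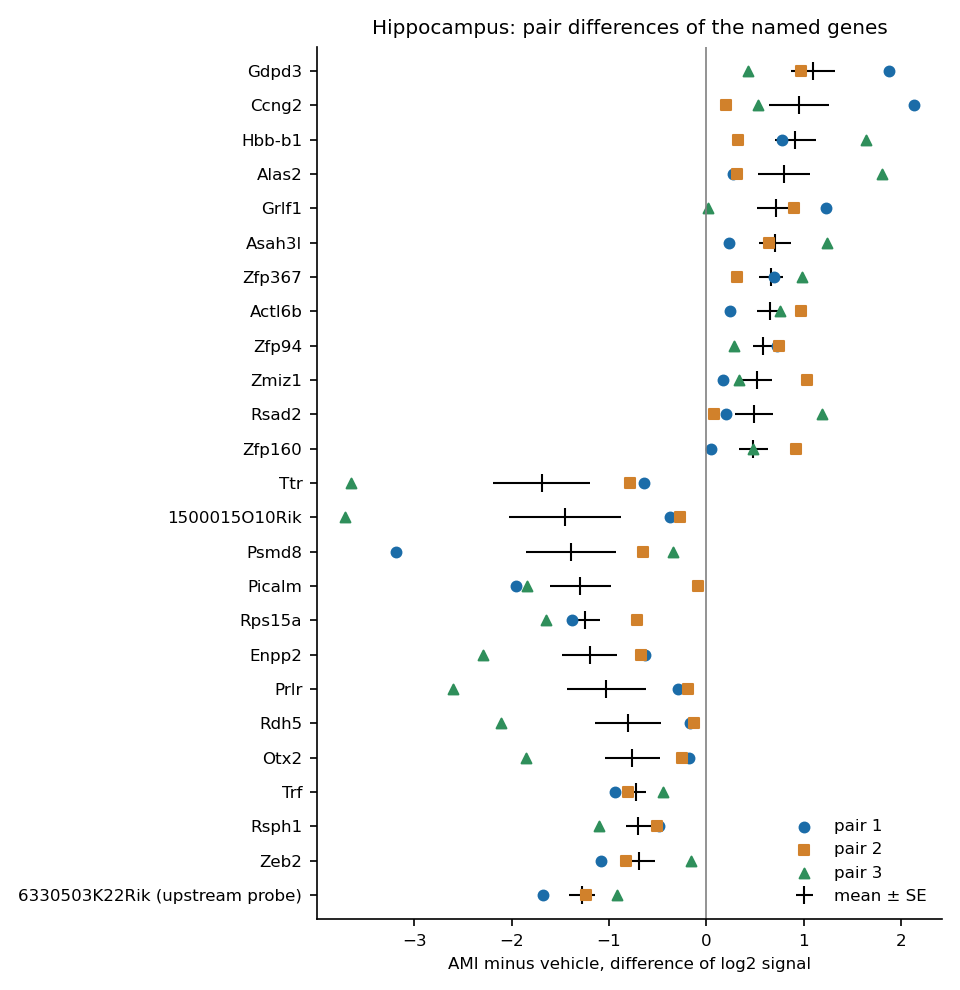
Difference of log2 signal, AMI minus vehicle (horizontal axis), in each pair for the 12 higher and 12 lower genes chosen by rule and for the upstream probe of 6330503K22Rik, with the mean and the SE of the paired fit. The 3 pairs of Trf, Zfp94 and 6330503K22Rik lie close together, while pair 3 sets Ttr, 1500015O10Rik, Prlr, Rdh5 and Otx2 and pair 1 sets Psmd8 and Ccng2.

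The genes that the study singled out were also read in the paired fit. They were chosen on these same samples, so their counts are not independent evidence. Of 14 such genes, which are not all that the study named, 8 were higher and 3 lower at p under 0.05. With a plain paired t-test 1 was higher and 1 lower. In these counts 6330503K22Rik is read by its brighter downstream probe (-0.07), which was not called, and not by its upstream probe. Ndrg4, a gene of the N-myc downstream-regulated family, read 2.66, 2.57 and 2.55 with AMI and 2.41, 2.34 and 2.12 with vehicle, with no overlap (0.30 ± 0.08, limma adjusted p = 0.584). Anxa3, an annexin, differed by 0.33, Neo1, the neogenin receptor of netrins, by 0.38, Spred1, an inhibitor of Ras signalling, by 0.42, and Atp6v0a1, a subunit of the vacuolar proton pump, by 0.24, and none of their groups overlapped. The zinc transporter Slc30a5 (0.13 ± 0.08, limma adjusted p = 0.686) and the bromodomain gene Brd2 (-0.09 ± 0.09, limma adjusted p = 0.798) did not pass the test, and the probe of Brd2 read 0.05 with median centring. Other probes of these genes differed by 0.22 ± 0.08 for Slc30a5 and by 0.20 ± 0.08 and -0.11 ± 0.08 for Brd2. The 16 genes that the study linked to hippocampal neurogenesis all had p under 0.05 in the paired fit, 9 higher and 7 lower. Without pair 2 the counts were 5 and 3, with the unpaired t-test of the methods 4 and 4, and with a plain paired t-test 1 and 2. The higher ones included Actl6b, Grlf1, Neo1, Ndrg4 and Eltd1 (Adgrl4, an endothelial adhesion receptor, 0.39). The lower ones included the myelin list members Cnp and Olig1 (-0.24) and Slc6a9, a glycine transporter (-0.38).

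Genes expected in dividing progenitors and young neurons differed little. Of 14 tested genes of neurogenesis and proliferation 2 were higher at p under 0.05, the replication helicase subunit Mcm6 (0.28 ± 0.08, limma adjusted p = 0.584) and Ccnd2, cyclin D2 (0.29 ± 0.11, limma adjusted p = 0.609), and none was lower. Without pair 2 none was higher, and without pair 1 or without pairing 1 was. Dcx, doublecortin of migrating young neurons, differed by 0.05 ± 0.08 (limma adjusted p = 0.872), and Sox2, a stem cell factor, by 0.02 ± 0.08. In the dentate granule cell list pair 2 stood out. Prox1, the homeobox factor of granule cells, differed by -0.26, 0.68 and 0.13, and Dsp, desmoplakin, by -0.44, 0.78 and -0.26. Vehicle replicate 2 held the lowest Prox1 (0.90) and Dsp (-0.56) of the 6 arrays, and no gene of that list passed the test. The list median of 0.09 turned to -0.06 without pair 2. Granule cell markers were thus detected in samples labelled as hippocampus.

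Neurotrophins and their receptors gave no call. None of 13 genes was higher or lower at p under 0.05, and their differences lay between -0.10 and 0.13, with Bdnf, brain-derived neurotrophic factor, at 0.13 ± 0.08 (limma adjusted p = 0.7) and its receptor Ntrk2 at -0.10 ± 0.09. The 7 tested targets of AMI among transporters and receptors included Adra2a, the alpha-2A adrenergic receptor, which was higher (0.26 ± 0.09, limma adjusted p = 0.609), and 6 genes that did not pass. Immediate early genes, which neuronal activity induces within minutes, gave list medians of 0.11, -0.33 and 0.37 in the pairs. Without pair 3 the fitted median of 0.04 turned to -0.13. Only Jun passed among 11 (-0.25, limma adjusted p = 0.598), while Arc differed by 0.29, -0.54 and 0.65. Pair-to-pair spread of this size leaves the interval of Arc wide (0.13 ± 0.19).

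AMI is a cationic amphiphilic drug of the kind that gathers in lysosomes. Of 26 lysosomal genes 1 was higher and 2 lower at p under 0.05, and the lower ones were Lamp1 (-0.24) and Cd63 (-0.27), both lysosomal membrane proteins. The list median was -0.06. Of 18 genes of cholesterol synthesis 4 were higher, the enzymes Sc5d (0.29), Lss (0.23), Pmvk (0.21) and Dhcr7 (0.20), and Insig1, which restrains the pathway, was lower (-0.22). The list median was 0.07, and the number higher was 2 without pair 1, 2 without pair 2 and 1 without pairing. Of 19 amyloid and tau genes Picalm and the phosphatase subunit Ppp2ca (-0.21, limma adjusted p = 0.616) were lower. App differed by -0.09 ± 0.09 and Mapt, tau, by -0.17 ± 0.08 (limma adjusted p = 0.645), where the mouse probes may or may not also read the human transgenes. Astrocyte genes had 2 higher (Glul, 0.23, and Sparcl1, 0.23) and 1 lower of 16, with a median of 0.02. Pyramidal cell and interneuron lists had 0 higher and 1 lower each, of 11 and of 14 genes, with medians of -0.03 and 0.05. Oxidative phosphorylation had 4 higher and 4 lower of 62, the proteasome 3 higher and 2 lower of 38, and the mitochondrial ribosome 1 higher and 3 lower of 65.

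The cortex gave a test of whether a hippocampal difference was particular to that tissue. In a fit of all 12 arrays with a block for each pair of each tissue, no gene's AMI effect differed between hippocampus and cortex at an adjusted p-value of 0.05, and 912 of 12430 probes did at an unadjusted p-value under 0.05. The smallest adjusted p-value was 0.355 (limma). With 1 probe per gene, the effect in hippocampus exceeded that in cortex at p under 0.05 for 4.39% of genes and fell short of it for 3.2%. Of the 24 genes named by rule 12 had the same sign in the cortex, 8 of the higher and 4 of the lower ones. Rps15a (-1.45 ± 0.14), Gdpd3 (1.11 ± 0.16), Ccng2 (1.15 ± 0.13) and the upstream probe of 6330503K22Rik (-0.97 ± 0.15) differed in the cortex about as much as in the hippocampus.

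For the myelin list the tissues differed more. The lists were chosen with earlier results of these data known, and Trf was named by its hippocampal difference. Their distance from the cortex reuses those hippocampal values and is not independent evidence of a tissue difference. Its cortical median was -0.01, with pair medians of -0.06, 0.20 and -0.15, and 8 of 16 genes had a lower effect in hippocampus than in cortex at p under 0.05. Trf differed by 0.15 ± 0.15 in the cortex, and the difference between tissues was -0.87 ± 0.21 (limma adjusted p = 0.591). The choroid plexus list had a cortical median of 0.12, with pair medians of -0.82, 0.59 and 0.61, and 2 of 12 genes differed between tissues. The 3 red cell genes had a higher effect in hippocampus, with a cortical median of -0.23 and with adjusted p-values of 0.639 or more. The 2 tissue tables were exported by different software versions and were normalized separately.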

How the data were processed

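RNA was hybridised to Illumina MouseRef-8 BeadChips, 1 array per sample. The authors deposited mean bead signals as linear intensity values, neither normalized nor background-corrected, with a detection p-value for each probe, from BeadStudio 3.4 (per the labels; the cortex table names GenomeStudio 1.1.1). No pooled or fold-change columns were used. Here log2 signal (no value was under 1) was centred on the mean of each array, divided by its SD and multiplied by the mean SD (z normalization, as in the methods of the study). Probes were filtered and tested with limma 3.58.1 in R 4.3.3 (lmFit, eBayes, Benjamini-Hochberg), with the replicate number as a block. With 2 residual degrees of freedom, eBayes draws the variance of a probe toward a common value, which gives low p-values to probes with 1 extreme pair. The array number limits the precision.

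The labels give the replicate numbers. The comparison was defined with same-numbered arrays as pairs. Deviations of these arrays correlated at 0.293 or more, but AMI replicate 3 was nearly as close to vehicle replicate 2 (0.28). A gene is read by its brightest tested probe. Named genes are the 12 per direction with the largest difference at p under 0.05, the same sign in all pairs and in each tested probe, plus genes past the cutoffs of the study, members of the lists and genes that the study names. Members and lists were chosen with earlier results of these data known. RefSeq names were matched by accession for 12540 of 13163 tested probes. The alternative settings were neqc (offset 16), median centring, quantile normalization, no detection filter, a detection p-value of 0.01 or less on all 6 arrays, trend and robust variances, no block, a random block (statmod 1.5.0), each pair left out, the unpaired t-test of the methods, a plain paired t-test and other forms of the study's cutoffs. Some genes are not reported here by name.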

Additional observations from a re-analysis of the deposited data

How the results depend on the processing

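The count at an adjusted p-value under 0.05 (0 in the paired limma fit) was 1 without the detection filter and 1 with the replicate number as a random block (correlation 0.495), in both cases 1 lower gene, which in the random block fit was 6330503K22Rik. It ran from 0 to 53 when 1 pair was left out, and was 0 in the other alternatives. The count at an unadjusted p-value under 0.05 (1006) became 1678 without the detection filter, 297 with no replicate block and 476 with the unpaired t-test of the methods; leaving out a pair gave 759 to 1042, and the other alternatives stayed within 1.5 times. Of the 1006 genes, 807 were also called with quantile normalization, 740 with median centring, 666 with neqc, 364 with a plain paired t-test and 457 to 526 without 1 pair. Unpaired, the adjusted p-values were 0.715 or more. By the cutoffs of the study the paired count of 1 became 3 with quantile normalization, 4 with median centring, 0 with neqc, 9 without the detection filter, 2 with the stricter detection p-value, 8 with trend and robust variances, 0 with no replicate block, 5 with the random block, 0 with the unpaired t-test and 1006 without the false discovery rate; without 1 pair it ran from 6 to 188. The difference between tissues gave 0 genes in each of 4 alternatives.

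Signs turned for the downstream probe of 6330503K22Rik (0.0191 with median centring, -0.216 to 0.0364 with 1 pair left out) and Brd2 (0.0531 with median centring). Without 1 pair the list median ran from -0.0165 to 0.0744 for interneurons and from -0.0215 to 0.028 for neurotrophins. With median centring it turned to 0.018 for the lysosome and 0.0406 for the mitochondrial ribosome. Medians of other lists close to 0 turned too, as for pyramidal cells (0.0402 without pair 1, 0.109 with median centring). The other genes chosen by size or named by the study kept their sign in each alternative, with 99 values that no longer reached p under 0.05. With quantile normalization the myelin list had 8 lower genes, the choroid plexus list 6 and the antigen presentation list 0 higher genes at p under 0.05, as it had with neqc. The causes were not tested.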

Other observations

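Several lists outside the comparisons above had few members at p under 0.05. Of 16 genes of endoplasmic reticulum and amino acid stress 3 were higher, Chac1, which degrades glutathione (0.24 ± 0.10), Sesn2, a stress-induced inhibitor of mTORC1 signalling (0.23 ± 0.09), and Creld2 (0.22 ± 0.08), while the transcription factor Atf5 was lower (-0.22 ± 0.09). None was higher without pair 2, without pair 3 or without pairing. The paralogous cytosolic chaperones Hsp90aa1 and Hsp90ab1 differed in opposite directions, by 0.29 ± 0.09 and -0.23 ± 0.09, and no other gene of 11 in that list passed. Of 11 circadian clock genes Per2, a repressor of the clock, was higher (0.28 ± 0.09). Among glucocorticoid-responsive genes the cell cycle inhibitor Cdkn1a was higher (0.23 ± 0.08) and Ddit4 lower (-0.23 ± 0.09). None of 13 postsynaptic genes passed. In the proteasome Psme3, an activator subunit, was higher (0.40 ± 0.10), with pair differences of 0.41, 0.19 and 0.60, and Psmb2, a core subunit, was lower (-0.23 ± 0.08). The limma adjusted p-values of these genes were all above 0.5. No gene of striatum or thalamus, regions next to the dissected tissue, was called among 5 and 6 tested.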
